A study of Mus musculus with 120 samples.

Results

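Gadd45a, Gadd45b, Gadd45g and Rrad were followed in single mouse group 2 innate lymphoid cells (ILC2) before stimulation and after the onset of cytokine secretion. They are 4 of the 46078 genes listed for each cell, matched by Ensembl identifier, and were chosen by their CPM at 30 min after onset against pre-stimulation cells, so the change from pre-stimulation cells to 30 min cells is given as a description. Comparisons of other states with the 30 min or pre-stimulation cells draw on the same chosen values and are descriptions too. ILC2 are tissue lymphocytes that release interleukin (IL)-5 and IL-13 after an alarm signal such as IL-33. The cells came from the mesentery of 20 wildtype C57BL/6 mice, pooled, sorted for absence of lineage markers and presence of c-Kit and Sca-1, then expanded in culture for months, and all groups share this origin. Each of the 120 libraries is 1 cell. Some cells were staged by imaging IL-13 secretion and the others by imaging IL-5 secretion, here called the IL-13 index and the IL-5 index. Each index holds 5 cells taken before stimulation and 11 cells in each of 5 states reached under IL-2 and IL-33: transition cells recovered 30, 60 or 90 min after their own secretion onset, activated cells, which were secreting at a later fixed time, and silent cells, which were not secreting then.

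The GADD45 proteins are small, related stress-response proteins with no enzyme activity of their own. They act by binding partners, among them the kinase encoded by Map3k4, which feeds the p38 and JNK pathways, and they have been tied to growth arrest, DNA repair and removal of DNA methylation. Gadd45b is a known target of the transcription factor NF-kB, and Gadd45b and Gadd45g are known in T cells for raising p38 signalling and interferon production after cytokine or receptor stimulation. Rrad encodes a Ras-related GTPase of the RGK family, which binds the beta subunits of voltage-gated calcium channels and calmodulin.

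On GRCm38 all are protein-coding genes on different chromosomes. Gadd45a (ENSMUSG00000036390) lies on chromosome 6 from 67035096 to 67037457, minus strand. Gadd45b (ENSMUSG00000015312) lies on chromosome 10 from 80930073 to 80932204, plus strand. Gadd45g (ENSMUSG00000021453) lies on chromosome 13 from 51846678 to 51848468, plus strand. Rrad (ENSMUSG00000031880) lies on chromosome 8 from 104628070 to 104631327, minus strand. Rrad overlaps the antisense gene Gm33023 and Gadd45a overlaps E230016M11Rik, on the opposite strand, and the strand setting of the counts is not given, so reads of such pairs cannot be told apart.

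The RefSeq promoter table (GRCm38.p6) held 3 of the 4 members. Their 250 bases before the RefSeq start are printed so that family members with unlike patterns over the states can be set side by side. That start differs from the Ensembl gene start above, and the windows of Gadd45a and Gadd45b reach into the Ensembl genes. Positions below count from the RefSeq start. Each runs 5′ to 3′ on the strand of the gene, with motif matches in capitals. The windows are chr6:67037408-67037657 for Gadd45a (minus strand), chr10:80929841-80930090 for Gadd45b (plus strand) and chr13:51846425-51846674 for Gadd45g (plus strand).
Gadd45a: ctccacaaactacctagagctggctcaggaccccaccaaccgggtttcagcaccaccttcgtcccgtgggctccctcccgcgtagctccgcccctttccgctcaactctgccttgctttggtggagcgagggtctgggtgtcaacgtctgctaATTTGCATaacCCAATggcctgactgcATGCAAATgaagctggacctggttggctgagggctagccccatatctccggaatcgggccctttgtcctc
Gadd45b: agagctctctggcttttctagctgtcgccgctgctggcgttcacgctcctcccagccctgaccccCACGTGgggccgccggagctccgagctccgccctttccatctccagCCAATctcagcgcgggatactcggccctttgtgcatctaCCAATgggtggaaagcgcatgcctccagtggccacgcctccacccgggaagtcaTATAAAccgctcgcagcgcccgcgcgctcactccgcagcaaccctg
Gadd45g: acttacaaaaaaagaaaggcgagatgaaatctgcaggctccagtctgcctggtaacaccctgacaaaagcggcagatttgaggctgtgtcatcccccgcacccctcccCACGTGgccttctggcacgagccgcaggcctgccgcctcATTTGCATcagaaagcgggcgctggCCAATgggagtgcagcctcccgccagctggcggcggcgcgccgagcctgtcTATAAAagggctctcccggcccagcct
Gadd45b and Gadd45g both held a TATA box (TATAAA), at 46 to 41 and 27 to 22 bases before the start, held on either strand by 12.4% of 32851 promoter windows of this length. Both also held an E-box (CACGTG; 6.02% of windows), at 185 to 180 bases in Gadd45b and 142 to 137 in Gadd45g. An octamer (ATTTGCAT; 1.60%) stood in Gadd45g at 103 to 96 bases, and Gadd45a held 1 on each strand, at 97 to 90 and 70 to 63 bases. CCAAT (33.8%) was present in all 3, with 2 copies in Gadd45b. No match to AP-1 (TGANTCA; 6.75%), CRE (TGACGTCA; 1.55%) or the NF-kB consensus (7.25%) was in these windows on either strand. No matches overlapped. The motif list was chosen after the sequences had been read, and a match describes letters only.

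Gene reads per cell had a median of 254001 and ran from 65 to 785198, and 6 cells lay under 84667 reads, the median divided by 3. Those shallow cells were all stimulated (2 IL-13 cells at 90 min and 4 IL-5 cells). Libraries were pooled in sets of 5 or 6, taken here as the cells of 1 state and 1 title date, 22 pools in all. The title dates differ between the indexes, so index and date cannot be told apart. All 10 ILC2 markers were detected, with a summed level of 4897 to 10967 counts per 1000000 gene reads (CPM) over the groups, and 118 cells had reads of at least 3 of them. B cell and NK cell or ILC1 markers were at 0 in every cell. Of the mast cell markers, Mcpt4 and Cma1 were at 0 and Cpa3 had reads in 2 cells (up to 10.2 CPM in a group). Of the macrophage markers, Lyz2 and Csf1r were at 0 and Adgre1 had reads in 1 cell (38.3 CPM in IL-5 activated cells). Of the stromal and endothelial markers, Col1a1, Dcn and Pdgfra were at 0, and Pecam1 is given below. T cell markers had reads in 53 cells, in none of them 3 or more markers, and their summed level was 1159 and 1312 CPM in the pre-stimulation groups against 24.8 to 576 CPM after stimulation (576 in IL-13 silent and 71.7 in IL-13 activated cells), with Cd3g alone at up to 1195 CPM. ILC3 markers had reads in 5 cells, with a summed level of 344 CPM in IL-13 activated cells, 6.42 CPM in IL-13 silent cells and 0 elsewhere. Pecam1 had reads in 77 cells, at 0 to 175 CPM over the groups (175 in IL-5 cells at 30 min, 2.82 and 1.61 in IL-13 and IL-5 activated cells). The part of these markers in the differences between groups was not tested. No label ties a cell to an animal or culture, so each group counts as 1 sample, no test was made, and intervals cover counting error only. A group level is the CPM of its summed reads with an exact 95% Poisson interval.

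Gadd45b was absent before stimulation and present in nearly every cell after onset. All 10 pre-stimulation cells held 0 reads, which allows up to 3.11 CPM (IL-13 index) and 2.47 CPM (IL-5 index) at 3 reads over the group. At 30 min the level was 2855 CPM (2792 to 2919.9) in IL-13 index cells, with cells at 689 to 4417 and a median of 2774 CPM. IL-5 index cells at 30 min were at 2978 CPM (2921 to 3035), and apart from 1 library of 73 reads with no Gadd45b read they ran from 1459 to 5774 CPM with a median of 2806 over all 11. No stimulated 30 min cell of adequate depth overlapped the pre-stimulation cells.

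Over the next hour the Gadd45b levels stayed short of 2-fold from that at 30 min. At 60 and 90 min it was 3492 CPM (3426 to 3559) and 3084 CPM (2999.9 to 3169) in the IL-13 index, with cells at 2162 to 5676 and 690 to 5418 CPM. For IL-5 the 60 min cells held 2133 CPM (2084 to 2183) and the 90 min cells 2381 CPM (2311 to 2453). The cell ranges of the 3 transition times overlapped in both indexes, so their order is not set beyond the spread of cells. The log2 ratio of 60 min to 30 min cells was 0.29 (IL-13 index) and -0.48 (IL-5 index), and that of 90 min to 30 min cells was 0.11 and -0.32.

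Activated cells held less Gadd45b than 30 min cells in both indexes. Their level was 1391 CPM (1350.1 to 1432) in the IL-13 index, with cells at 0 to 2529 and a median of 1327 CPM, and 1313 CPM (1276 to 1349.97) in the IL-5 index, with cells at 286 to 2741 and a median of 1335 CPM. The log2 ratio of activated to 30 min cells was -1.04 (-1.09 to -0.98) and -1.18 (-1.23 to -1.13), short of 4-fold. Of 11 cells at 30 min, 7 (IL-13) and 6 (IL-5) lay above every activated cell. Within each title date the ratio kept its sign, at -0.96 and -1.09 for IL-13 and -0.80 and -1.47 for IL-5. Leaving out any 1 cell gave -1.22 to -0.89 and -1.33 to -0.96. The summed level of the ILC2 markers was also lower in activated cells, at 4897 against 9756 CPM at 30 min for IL-13 and 5620 against 10079 CPM for IL-5. Ly6a, at 2345 to 6586 CPM over the groups, made up the largest part of that sum. Il7r went the other way, with its highest group level, 196 CPM, in IL-13 activated cells. The part of these markers in the Gadd45b difference was not tested.

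Silent cells differed between the indexes in their Gadd45b level. IL-13 silent cells held 359 CPM (337 to 383), with cells at 0 to 1591 and a median of 209 CPM, while IL-5 silent cells held 1392 CPM (1350.4 to 1434), with cells at 4.29 to 2799 and a median of 1445 CPM. At least 100 CPM was reached by 6 of 11 IL-13 silent cells and 9 of 11 IL-5 silent cells. The log2 ratio of activated to silent cells was 1.95 (1.85 to 2.06) for IL-13 and -0.08 (-0.14 to -0.02) for IL-5. In the IL-13 index the 2 title dates gave 0.89 and 3.38, since silent cells of the first date held 797 CPM and those of the second 129 CPM, and leaving out any 1 cell gave 1.77 to 2.47. For IL-5 the dates gave 0.23 and -0.37. Whether the indexes differ was not tested, and index and date cannot be told apart. Silent cells of the IL-5 index were classed by IL-5 alone, and their Il13 level was 627 CPM against 4.16 CPM in IL-13 silent cells. Silent replicate 6 of the IL-5 index held 6576 CPM of Il5, with 77.7% of the group's Il5 reads and 47.1% of its Il13 reads. The silent label is of secretion and not of transcript. Without it the Il13 level was 352 CPM, and the activated to silent log2 ratio was -0.12 for Gadd45b, -1.73 for Rrad and 0.30 for Gadd45g.

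**Figure D1:**
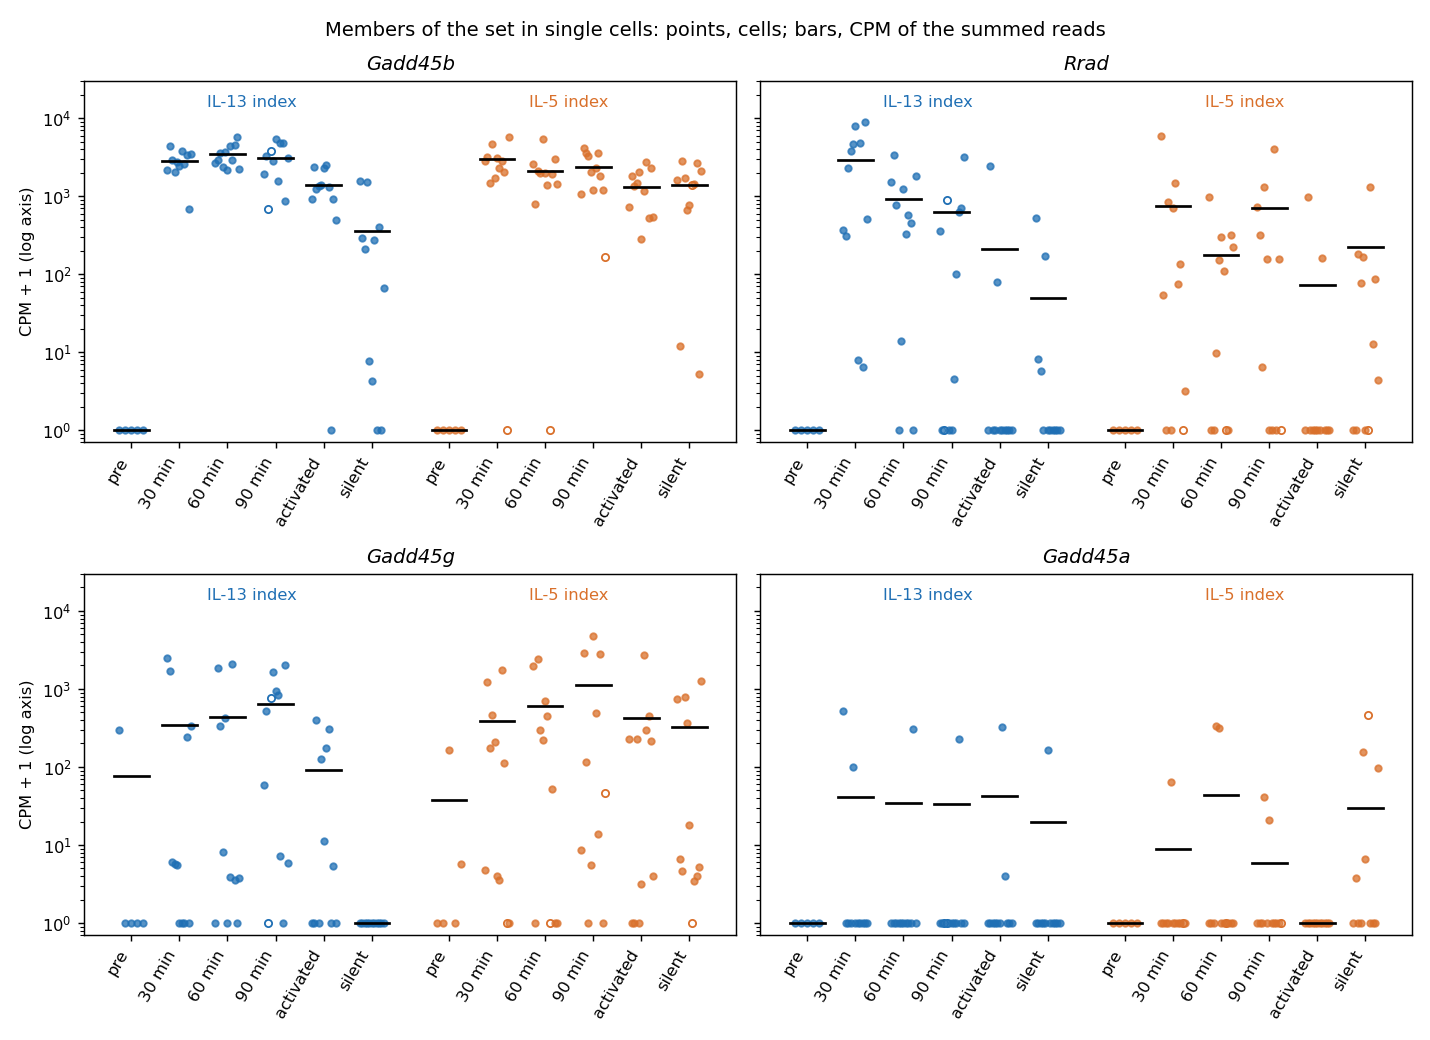
CPM + 1 on a log axis for each member in each of the 120 cells, by index and state, with cells under 84667 reads as open points and black bars for the CPM of the group's summed reads. Gadd45b is at 0 in all 10 pre-stimulation cells and at 100 CPM or more in every transition cell of adequate depth, Rrad is spread from 0 to 8873 CPM, Gadd45g is at 0 in all 11 IL-13 silent cells, and Gadd45a has reads in 17 cells.

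Rrad was at 100 CPM or more in 9 of 11 IL-13 and 5 of 11 IL-5 cells at 30 min, and in 1 and 2 of 11 activated cells. No pre-stimulation cell held a read. At 30 min the IL-13 index level was 2916 CPM (2852 to 2981), with cells at 5.54 to 8873 and a median of 2277 CPM. In the IL-5 index it was 753 CPM (725 to 782), with cells at 0 to 5957 and a median of 74.7 CPM. There 3 cells held no read, among them the library of 73 reads, and 1 cell, replicate 1, held 58.8% of the group's Rrad reads.

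The summed Rrad level was lower at 60 min, at 908 CPM (875 to 943) for IL-13 and 177 CPM (163 to 191) for IL-5. Cells ran from 0 to 3363 CPM with a median of 567, and from 0 to 978 CPM with a median of 108. The log2 ratio to 30 min was -1.68 (-1.75 to -1.62) for IL-13, with -0.93 and -2.14 in the title dates. It was -2.09 (-2.22 to -1.96) for IL-5, with -2.53 and -1.49 in the dates, and -0.92 without replicate 1 at 30 min. The 60 min and 30 min cells overlapped in both indexes. In the IL-5 index the median went the other way, from 74.7 to 108 CPM and then 154 CPM at 90 min. At 100 CPM or more were 5, 6 and 6 of 11 cells. These IL-5 medians take in 1 shallow library at each time, of 73, 65 and 66588 reads. Of the 10 cells of adequate depth at each time, 5, 6 and 6 reached 100 CPM.

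At 90 min the indexes gave unlike Rrad values. The IL-13 index was at 626 CPM (589 to 665), with cells at 0 to 3164 and a median of 99.3 CPM, a log2 ratio to 30 min of -2.22 (-2.31 to -2.13), and -3.46 and -2.06 in the dates. Replicate 11 held 61.6% of those reads, and the ratio was -3.41 without it and -1.90, short of 4-fold, without replicate 10 at 30 min. The IL-5 index was at 713 CPM (675 to 753), with cells at 0 to 4005 and a median of 154 CPM, a log2 ratio of -0.08 (-0.17 to 0.02). That last value turned on single cells: it was -1.66 without replicate 8 at 90 min, which held 70.9% of the reads, and 1.09 without replicate 1 at 30 min.

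In activated cells Rrad had a read in 2 of 11 cells of each index. The IL-13 level was 208 CPM (192 to 224), of which replicate 2 held 97.1% at 2417 CPM, and the other positive cell had 79.4 CPM. The IL-5 level was 71.5 CPM (63.2 to 80.7), from cells at 965 and 162 CPM. The log2 ratio of activated to 30 min cells was -3.81 (-3.93 to -3.70) and -3.40 (-3.58 to -3.21). It was -2.20 and -11.01 in the dates of the IL-13 index, the second against the 3-read floor, and -3.07 and -4.23 in those of the IL-5 index. Leaving out any 1 cell gave -8.81 to -3.50 (the lowest without activated replicate 2) and -5.69 to -2.23 (without activated replicate 2 and 30 min replicate 1).

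Silent cells held 48.0 CPM (40.0 to 57.1) of Rrad in the IL-13 index, in 4 of 11 cells, and 224 CPM (208 to 241.5) in the IL-5 index, in 7 of 11 cells. Activated against silent cells gave a log2 ratio of 2.11 (1.84 to 2.40) in the IL-13 index, but -2.89 without activated replicate 2 and 4.19 without silent replicate 1. The IL-5 index gave -1.65 (-1.86 to -1.44), but 0.29 without silent replicate 8, which held 77.3% of the reads, and 0.75 and -4.01 in the 2 dates. The direction of this comparison therefore rested on single cells in both indexes.

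Gadd45g differed from Gadd45b in being present before stimulation in a few cells and in being found in some cells only. Among pre-stimulation cells the IL-13 index had 1 cell at 297 CPM and 4 at 0, and the IL-5 index had cells at 162 and 4.67 CPM and 3 at 0. The IL-13 index level was 75.7 CPM (59.3 to 95.2) before stimulation. The 30 min cells held 349 CPM (327 to 372), the 60 min cells 438 CPM (415 to 462) and the 90 min cells 640 CPM (602 to 679.6). For IL-5 the 4 levels were 36.3 CPM (26.4 to 48.7), 384 CPM (364 to 405), 608 CPM (582 to 634) and 1139 CPM (1090.4 to 1189). At least 100 CPM was reached by 4, 4 and 6 of 11 cells at the 3 times for IL-13 and by 6, 6 and 5 for IL-5, and the highest cells were at 2460.3, 2061 and 2023 CPM and at 1770.4, 2395 and 4769.7 CPM. The medians were 4.72, 2.93 and 519 CPM for IL-13 and 109.8, 222 and 45.1 CPM for IL-5, where replicate 6 held 46.5% of the 90 min reads. These medians are over all 11 cells of a group, shallow ones included. The ranges of cells at the 3 times overlapped, so their order is not set beyond the spread.

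The log2 ratio of Gadd45g at 90 min to 30 min was 0.88 (0.75 to 1.01) in the IL-13 index, with -0.14 and 2.54 in the title dates, and 1.57 (1.47 to 1.67) in the IL-5 index, with 0.71 and 2.07. Leaving out any 1 cell gave 0.40 to 1.62 for IL-13 and 0.84 to 2.41 for IL-5. Activated cells were at 91.1 CPM (81.0 to 102) for IL-13, a log2 ratio to 30 min of -1.94 (-2.13 to -1.74), with -3.04 and -0.24 in the dates and -2.39 to -1.19 without 1 cell (activated replicate 8 and 30 min replicate 1), and at 424 CPM (403 to 445) for IL-5, a ratio of 0.14 (0.04 to 0.25). The second ratio was -1.53 without activated replicate 7, which held 72.2% of the group's Gadd45g reads at 2730.5 CPM.

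All 11 IL-13 silent cells held 0 Gadd45g reads in 2646835 gene reads, which allows up to 1.13 CPM. IL-13 activated cells were at least 80.4-fold higher (291 reads, 6 of 11 cells), on a mean level under the 50 CPM minimum set for counting genes. IL-13 silent cells were at least 66.8-fold lower than pre-stimulation cells, but all 73 pre-stimulation reads came from 1 cell. IL-5 silent cells, in contrast, held 325 CPM (305 to 345), with reads in 10 of 11 cells and at least 100 CPM in 4. The log2 ratio of activated to silent cells for IL-5 was 0.39 (0.27 to 0.50), with -2.07 and 1.35 in the dates.

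Gadd45a was scarce, with 716 reads over 17 cells, against 60249 for Gadd45b, 11849 for Gadd45g and 17957 for Rrad. No pre-stimulation cell and no IL-5 activated cell held a read, and other groups had reads in 1 to 5 cells, with levels of 4.92 to 42.1 CPM. In the IL-13 index each stimulated group rested on 1 cell, which held 79.6% to 100% of the Gadd45a reads. E230016M11Rik, which overlaps it, had 0 reads. With both title dates together, a mean of 50 CPM was not reached in any comparison of Gadd45a, and its ratios are not interpreted. On the first date alone it was reached, with 109 CPM in IL-13 cells at 30 min and 0 CPM in IL-13 cells at 60 min, 90 min and in activated cells, and 94.3 against 18.0 CPM in IL-5 cells at 60 and 30 min.

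Low reads of Gadd45b, Gadd45g and Rrad stood in pools that held a high cell. Among cells under 100 CPM of a member, those in a pool with another cell at 100 CPM or more had a read in 5 of 8 cells for Gadd45b, 28 of 57 for Gadd45g and 17 of 46 for Rrad, against 0 of 10, 0 of 11 and 0 of 22 in the other pools. The median level of those reads was 6.65, 4.55 and 8.78 CPM. The other pools were the pre-stimulation cells for Gadd45b, the IL-13 silent cells for Gadd45g, and the pre-stimulation cells with the second-date IL-13 activated and silent cells for Rrad. For Gadd45b and Gadd45g, pool and state cannot be told apart. For Rrad, 2 states held both kinds of pool: among cells under 100 CPM it had a read in 2 of 3 first-date and 0 of 6 second-date IL-13 silent cells, and in 1 of 4 and 0 of 6 IL-13 activated cells. For Gadd45a the counts were 4 of 35 and 3 of 70. The part of pool mates in counts of cells with a read was not tested, so cells at 100 CPM or more, a limit set after the data were seen, are given beside them.

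The members were read against all genes whose mean level in the compared pair of groups reached 50 CPM, a change past 4-fold in CPM being counted. At 30 min against pre-stimulation, Gadd45b, Gadd45g and Rrad passed the minimum and were past 4-fold higher in both indexes, beside 15.6% of 2654 genes (IL-13) and 15.2% of 2837 (IL-5). This contrast chose the members and nothing is read from it. Gadd45g was 4.60-fold and 10.6-fold higher there, and leaving out any 1 cell gave log2 ratios of 1.46 to 6.38 (lowest without replicate 1 at 30 min, highest without pre-stimulation replicate 1) and 2.56 to 6.92 (without replicate 8 at 30 min and pre-stimulation replicate 3). In the IL-5 index Rrad was at least 304-fold higher at 30 min (2674 reads against 0), a log2 bound of 8.25 that was 7.08 without replicate 1.

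Between 30 min and 60 min, 0 of 3 members were past 4-fold in either direction in the IL-13 index (5.79% of genes higher and 6.11% lower), while Rrad alone was past 4-fold lower in the IL-5 index (3.71% of genes higher and 4.60% lower). Between 30 and 90 min, Rrad alone was past 4-fold lower for IL-13 (10.1% of genes higher and 7.99% lower) and no member for IL-5 (7.31% higher and 4.05% lower). The 30 min values chose the members, so nothing is read from counts against 30 min cells. Against 30 min, activated cells had Rrad alone past 4-fold lower in both indexes (12.2% and 9.14% of genes, with 9.54% and 4.28% higher). Against silent cells, activated cells had Rrad past 4-fold higher for IL-13 (6.04% of genes), with the single-cell limit given above, and no member for IL-5 (2.65% higher and 5.93% lower). Averaging the CPM of single cells gave a log2 ratio of 1.81 for Rrad in the IL-13 index, short of 4-fold. With the TMM and DESeq2 size factors described below, Gadd45b was past 4-fold there too, at 2.13 and 2.17. Silent against pre-stimulation cells had Gadd45b past 4-fold higher for IL-13, the 1 member over the minimum (17.1% of genes), at least 115.5-fold (951 reads against 0). For IL-5, Gadd45b, Gadd45g and Rrad were past 4-fold higher there (14.2%). Activated against pre-stimulation cells had Gadd45b and Rrad past 4-fold higher for IL-13 (16.1% of genes), and Gadd45b and Gadd45g for IL-5 (14.6%). Of these, the log2 ratio of Rrad went from 6.06 to 1.06 without activated replicate 2, and that of Gadd45g from 3.55 to 1.87 without activated replicate 7, both short of 4-fold. The pre-stimulation values also chose the members, and Gadd45b and Rrad, at 0 reads there, passed the minimum through the other group alone. Nothing is therefore read from counts against pre-stimulation cells either. Comparisons that share the 30 min, silent or pre-stimulation cells are not independent.

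**Figure D2:**
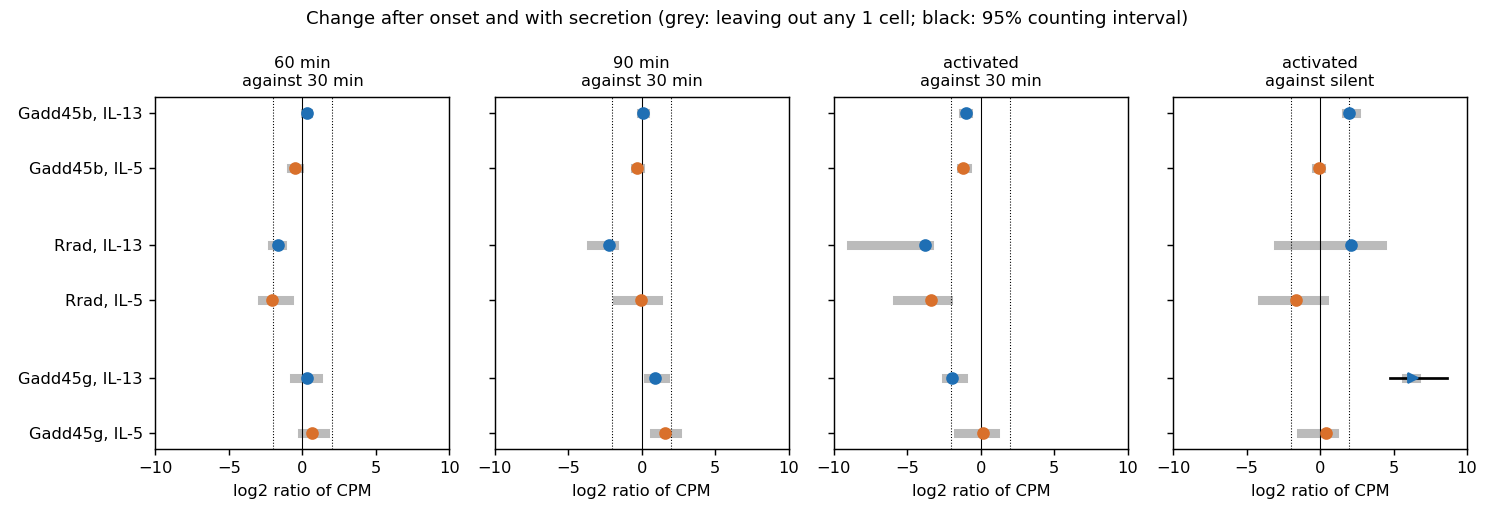
Log2 ratio of CPM for Gadd45b, Rrad and Gadd45g in 4 comparisons, IL-13 index in blue and IL-5 index in orange, with grey bars for the range on leaving out any 1 cell, black bars for the 95% counting interval (mostly hidden by the points) and dotted lines at 4-fold. Gadd45b and Rrad lie below 0 in activated against 30 min cells in both indexes, and the grey bars of Rrad cross 0 in activated against silent cells. The triangle is a bound against 0 reads.

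The relation of the members to Il13 and Il5 was described over stimulated cells of adequate depth, 53 for IL-13 and 51 for IL-5. These cells share pools, dates and depth differences, and the relations are descriptions. The Il13 level of the IL-13 index was 1.04 CPM before stimulation (1 read), 2144 CPM at 30 min, 967 at 60 min, 504 at 90 min, 1231 in activated and 4.16 in silent cells. The Il5 level of the IL-5 index was 0, 4602, 2471, 3998, 2929 and 484 CPM in the same order, and the silent level was 114 CPM without replicate 6.

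Gadd45b was higher in cells with more Il13 in the IL-13 index, with a Spearman rho of 0.41 with Il13 (Pearson r 0.56) and 0.47 with Il5. Among the 31 transition cells rho with Il13 was 0.061, and over the 22 cells at 30 min or activated it was -0.064. At 30 min rho was -0.45 over 11 cells, and at 90 min it was 0.77 with Il13 and 0.90 with Il5 over 9 cells. IL-5 index cells gave rho of 0.16 between Gadd45b and Il5 and 0.31 between Gadd45b and Il13, with -0.52 for Il5 at 30 min over 10 cells. These within-time values rest on few cells and point both ways.

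Counted by cells, Gadd45b was at 100 CPM or more in 37 of 38 IL-13 index cells with Il13 at 100 CPM or more and in 10 of 15 others. For Il5 in the IL-5 index the counts were 43 of 44 and 6 of 7. Gadd45b thus reached 100 CPM in most cells under 100 CPM of the cytokine transcript too, among them 6 of the 11 IL-13 silent cells, none of which reached 100 CPM of Il13.

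The rho of Rrad with the index cytokine was 0.21 for Il13 and -0.051 for Il5. Rrad was at 100 CPM or more in 21 of 38 IL-13 index cells with Il13 at that level and 3 of 15 without, and in 21 of 44 IL-5 index cells with Il5 at that level and 1 of 7 without. In activated cells 8 of 9 with Il13 (IL-13 index) and 8 of 10 with Il5 (IL-5 index) lacked 100 CPM of Rrad. Gadd45g gave 0.27 with Il13 and 0.15 with Il5 in the same order. Weak correlations in counts with many zeros are not read as relations.

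**Figure D3:**
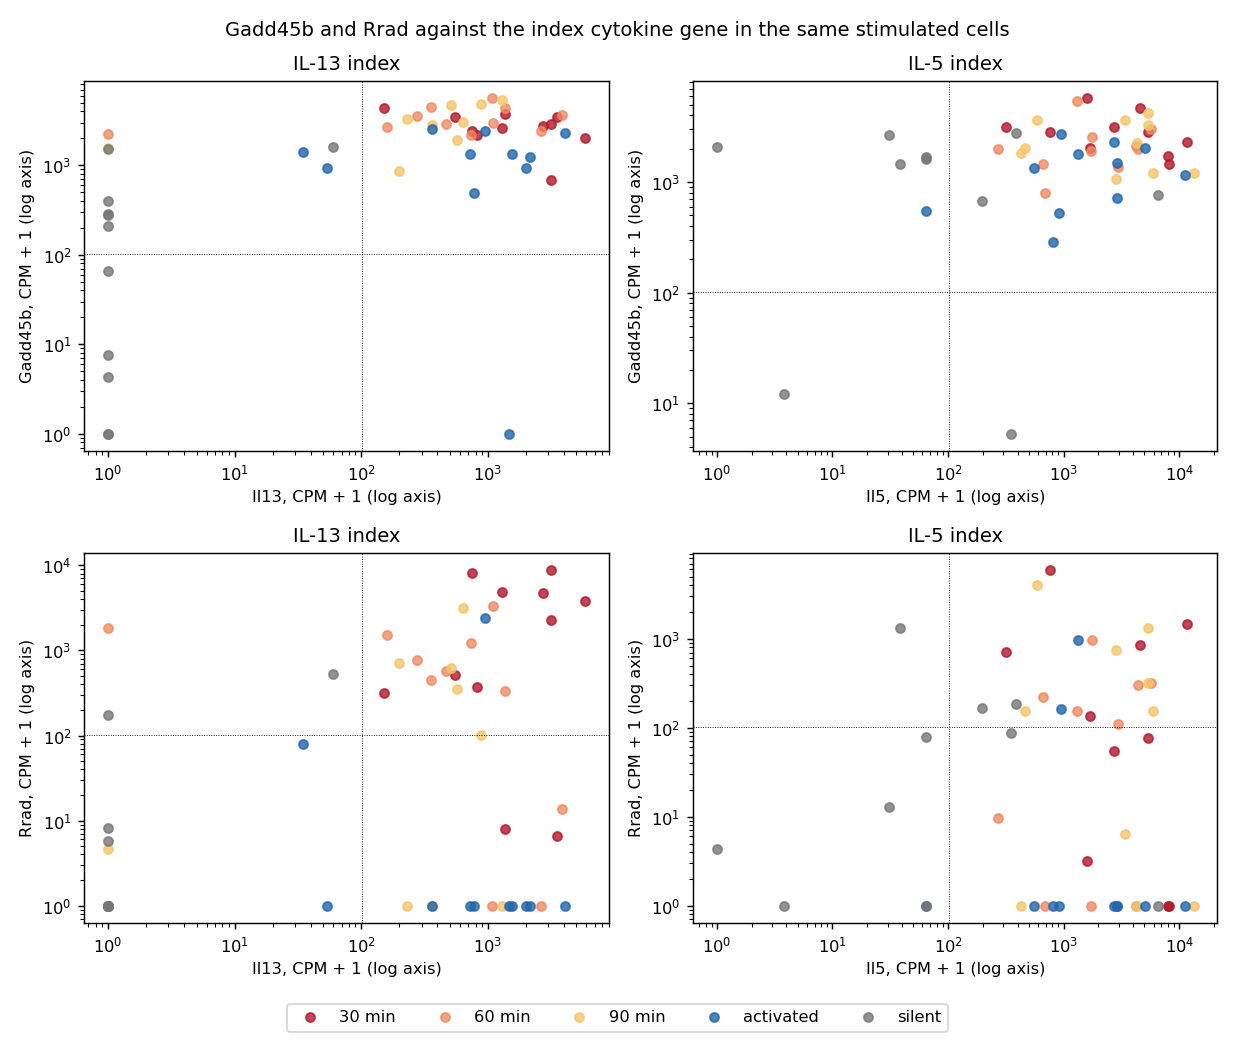
Gadd45b (top) and Rrad (bottom) against the index cytokine gene in the same stimulated cells of at least 84667 reads, 53 cells of the IL-13 index and 51 of the IL-5 index, CPM + 1 on log axes, with dotted lines at 100 CPM. All 11 silent IL-13 index cells sit left of 100 CPM of Il13 with Gadd45b from 0 to 1591 CPM, and most activated cells sit on the bottom line for Rrad.

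Rrad and Gadd45g were found together in a minority of transition cells. All 31 IL-13 and 30 IL-5 transition cells of adequate depth were at 100 CPM or more of Gadd45b. Of these, 21 and 17 also reached that level of Rrad, and 13 and 17 that of Gadd45g. Rrad and Gadd45g both reached it in 7 of 31 and 7 of 30 cells, Gadd45g alone in 6 and 10, and Rrad alone in 14 and 10. At 30 min in the IL-13 index, rho between Gadd45b and Rrad was -0.71 over 11 cells, while in the IL-5 index it was 0.23 over 10 cells.

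Other genes of the pathways were counted from lists of partners and targets. Of the NF-kB target genes, 12 of 13 were past 4-fold higher at 30 min in the IL-13 index, beside 15.6% of all genes counted. In the IL-5 index 10 of 11 were, beside 15.2%. The median log2 ratios were 5.91 (beside -0.23 over all genes counted) and 2.90 (beside -0.19). The lists were chosen with earlier results of these data known, and genes at 0 reads before stimulation passed the minimum through the 30 min cells alone. Nothing is therefore read from these counts. Medians take genes with under 3 reads in a group at the 3-read floor. Rel, an NF-kB subunit, was at 1024 CPM at 30 min against 1.04 CPM (1 read) before in the IL-13 index, a log2 ratio of 9.95 (7.47 to 15.25) on the 1 read and 8.36 against the 3-read floor, and at least 258-fold higher in the IL-5 index (2268 reads against 0). Nfkbiz, an atypical inhibitor of the family, was at 756 against 1.04 CPM (1 read) in the IL-13 index. Traf1, a TNF receptor adaptor, was at least 228-fold higher there (1902 reads against 0), and Tnfaip3, an ubiquitin-editing inhibitor of NF-kB, at least 69.3-fold higher in the IL-5 index (609 reads against 0). The low number of pre-stimulation cells limits all these folds.

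In silent against pre-stimulation cells 6 NF-kB targets reached the minimum for IL-13 and 12 for IL-5. For IL-13, 5 of 6 were past 4-fold higher, beside 17.1% of all genes (median 2.98 beside 0.05). For IL-5, 8 of 12 were, beside 14.2% (2.67 beside -0.16). Bcl3 and Bcl2l1, past 4-fold higher in IL-13 cells at 30 min, had 4.53 and 7.56 CPM in IL-13 silent cells, but 43.1 and 117 CPM in IL-5 silent cells. These 2 genes were named outside the rule of largest fold given below. Between activated and silent cells 2 of 10 were past 4-fold higher and 1 lower for IL-13, beside 6.04% and 13.6% of all genes. For IL-5 it was 0 of 12 in either direction, beside 2.65% and 5.93%. In IL-13 activated cells Cflar, an inhibitor of caspase 8 activation, was at 151 against 2.64 CPM (log2 ratio 5.83; reads in 9 and 3 of 11 cells), and Relb at 94.9 against 17.0 CPM (2.48). Icam1, an adhesion molecule, was at 10.6 against 110 CPM (-3.37), with reads in 3 and 2 of 11 cells.

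Partners of the GADD45 proteins were mostly under the 50 CPM minimum. Of 13 genes of the bound MAP kinase pathway 2 passed it at 30 min. Map2k3, a kinase of p38, was past 4-fold higher in the IL-5 index (547 against 70.1 CPM, log2 ratio 2.96), as were 15.2% of all genes. It was short of 4-fold in the IL-13 index (932 against 283 CPM, 1.72). Of the growth arrest and demethylation partners 4 of 10 passed in the IL-13 index, and 2 of the 4 were past 4-fold higher, beside 15.6% of all genes. Cdkn1a, the cyclin-dependent kinase inhibitor p21, was at 625 against 18.7 CPM (5.07) and Gadd45gip1, which encodes a GADD45G-binding protein, at least 84.1-fold higher (700 reads against 0). Tet3, a DNA demethylase, was lower, as were 17.0% of all genes counted for IL-13, at 12.3 against 200.1 CPM (-4.02), with all 193 pre-stimulation reads in 1 cell. In the IL-5 index 0 of 3 were past 4-fold, beside 15.2% of all genes higher and 17.1% lower. Cdkn1a was at 326 against 174 CPM there. Pcna, the replication clamp, was past 4-fold higher in IL-13 activated against silent cells (168 against 34.4 CPM, 2.29), as were 6.04% of all genes. In IL-13 silent against pre-stimulation cells Cdkn1a and Gadd45gip1 were past 4-fold higher (17.1% of all genes). Pcna and Tet3 were past 4-fold lower there (14.2%). Map2k3, Cdkn1a and Gadd45gip1 were named after their values were seen.

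The remaining lists had few genes over the minimum. Rrad relatives and partners had 0 of 5 genes past 4-fold at 30 min for IL-13, beside 15.6% of all genes higher and 17.0% lower. For IL-5 it was 1 of 5, beside 15.2% higher and 17.1% lower. That gene was Calm3, a calmodulin gene, with 694 reads at 30 min and 0 before stimulation, a rise of 79.0-fold or more. For IL-13 Calm3 was at 88.2 CPM at 30 min and 110 CPM before. The p53 targets had 1 of 4 higher (Cdkn1a) and 2 lower for IL-13 (15.6% of all genes higher and 17.0% lower), Mdm2 at 36.6 against 181 CPM (-2.31) and Trp53inp1 at 22.0 against 96.4 CPM (-2.13), each from 1 pre-stimulation cell. For IL-5, 2 of 5 were higher (15.2% of all genes), Mdm2 at 91.2 against 20.6 CPM (2.15) and Aen, a nuclease gene, at least 44.4-fold (390 reads against 0). Mdm2 thus had opposite signs in the indexes. Aen was also past 4-fold higher in IL-5 activated against silent cells (113 against 23.2 CPM, 2.29), as were 2.65% of all genes. For IL-13 it was at 111 against 213 CPM (-0.93), where the silent reads came from 2 of 11 cells. Of the Atf4 and stress genes 0 of 2 were past 4-fold for IL-13 (15.6% of all genes higher and 17.0% lower). Ddit3 was lower for IL-5 (20.0 against 264 CPM, -3.72), as were 17.1% of all genes. Asns, an asparagine synthetase gene named after its values were seen, was past 4-fold higher in IL-13 activated against silent cells (109 against 25.7 CPM, 2.08), as were 6.04% of all genes.

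**Figure D4:**
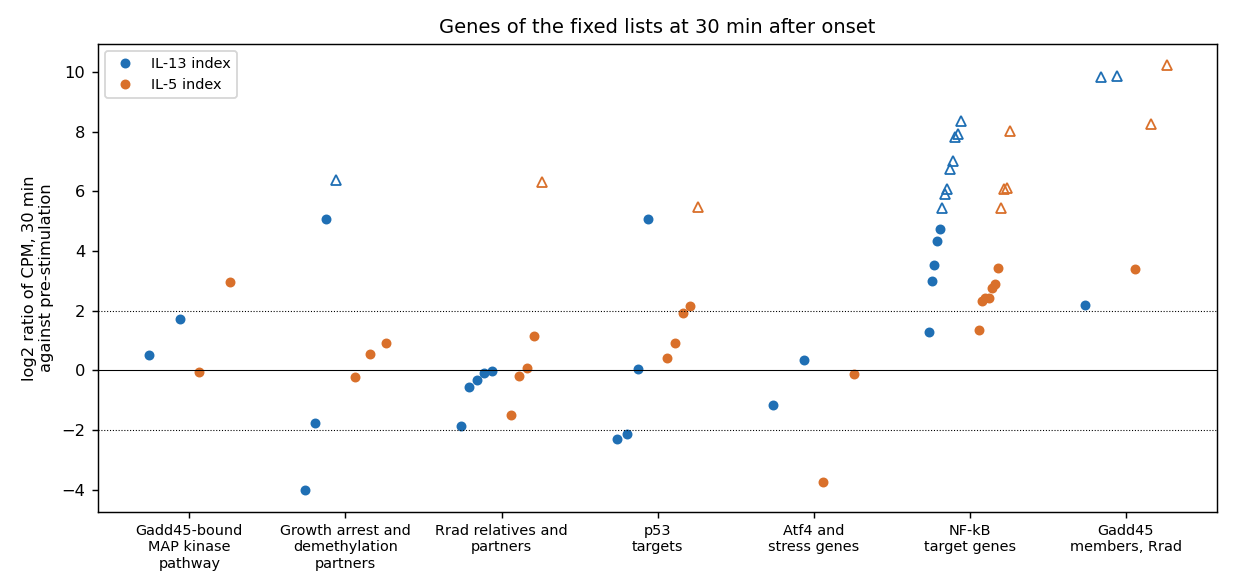
Log2 ratio of CPM at 30 min against pre-stimulation for the genes of each list with a mean of at least 50 CPM, and for the members, by index. Triangles mark genes with under 3 reads in a group, set to the 3-read floor, and dotted lines mark 4-fold. NF-kB target genes lie above 4-fold in 12 of 13 and 10 of 11 cases (15.6% and 15.2% of all genes counted), and the other lists lie on both sides of 0.

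Over the 12 groups, the genes most like each member were ranked by Pearson r of log2(CPM + 10) among 6468 other genes (6469 for Gadd45a) with at least 50 CPM in a group. The 12 points share groups of cells and pools, and most of the variation is between pre-stimulation and stimulated cells. Gadd45b was nearest to Pim2 (0.984), a survival kinase, Furin (0.977), a protein convertase, Nfkbia (0.968), the NF-kB inhibitor, Cd44 (0.967), an adhesion receptor, and Hspa9 (0.963), a mitochondrial chaperone. Il5 stood at 0.937 (rank 15), Rrad at 0.900 (rank 50) and Il13 at 0.898 (rank 54). Rrad was nearest to Rel (0.956), Dennd4a (0.949), Gm12840 (0.945), Nfkbia (0.943) and Junb (0.935), an AP-1 subunit, with Gadd45b at rank 17. Nfkbia was the 1 gene in both lists of 5.

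Gadd45g was nearest to Map3k8 (0.892), a MAP kinase kinase kinase, Eif4e (0.880), the cap-binding factor, Acot7 (0.875), Tnfrsf25 (0.872), a TNF family receptor, and Tspan13 (0.871). Its r with Gadd45b was 0.641 (rank 193) and with Rrad 0.651 (rank 179), beside 0.900 between Gadd45b and Rrad. Since the groups that chose the members are among the 12, nothing is read from this difference. Il13 stood at 0.809 (rank 18) with Gadd45g and Il5 at 0.726. Gadd45a, at low levels in 1 or a few cells per group, was nearest to Socs5 (0.836), Ece2 (0.830), Pknox1 (0.823), Mrpl11 (0.819) and 2010315B03Rik (0.804).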

How the data were processed

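Single ILC2 of 12 groups were profiled by 3′ RNA sequencing (SMART-Seq v4 3′ DE libraries). The deposited files hold raw counts of reads for every gene: the authors aligned reads with TopHat (TopHat2 in the submitters' processing notes) to GRCm38 and counted with HTSeq. Strand setting, versions and annotation release are not given in the sources used here. Each cell lists 46078 identifiers, of which 45143 were matched to symbols, and 5 HTSeq entries, left out of depth; gene reads were 62.0% of entries and 28.7% were not unique. Reads carry no molecular identifiers, so intervals cover counting error only.

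Cells were grouped by source name and title. Group totals of reads were expressed per 1000000 gene reads (CPM). Log2 ratios set a group under 3 reads to 3 reads over the group, with an exact (Clopper-Pearson) 95% interval of the split of reads; folds against 0 reads are bounds, and for 1 read the ratio without this floor is given too. Genes with a mean of at least 50 CPM and a fold of 4 were counted. Named genes were the members, Il13, Il5, up to 3 list genes per index and direction with the largest fold at 30 min against pre-stimulation and in activated against silent cells, and the 5 genes most like each member. The members and lists were chosen with earlier results of these data known. Relations used log2(CPM + 1) in cells of at least 84667 reads. Cells were thinned to 100000 reads for 1 alternative, which kept 113 cells.

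Alternatives tried included averaging the CPM of single cells, TMM (edgeR 4.0.16) and DESeq2 1.42.0 size factors in R 4.3.3, a pseudocount of 10 CPM, other CPM minimums and folds, no shallow cells, each title date, pooled pre-stimulation cells and leaving out each cell. Python 3.11.15, numpy 2.4.6, pandas 2.3.3, scipy 1.17.1 and matplotlib 3.10.9 were used. Counting was tested on simulated data.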

Additional observations from a re-analysis of the deposited data

Results flagged for a closer look

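Of 6 measures with any spread in the pre-stimulation groups of 5 cells, 4 had a highest cell set apart from the others by Dixon's criterion. In 3 of the 4 all other cells were at 0, so the criterion was met by construction, and its usual chance rate of about 1 in 20 groups does not apply. Gadd45g was at 297 CPM (73 reads) in replicate 1 of the IL-13 index, with the other 4 cells at 0. In the IL-5 index Gadd45g was at 162 CPM (43 reads) in replicate 3, with the next cell at 4.67 CPM. The same IL-13 index cell, replicate 1, was also alone in Il5, at 93.4 CPM (23 reads), and replicate 4 held the 1 Il13 read of its group, at 5.93 CPM. Replicate 1 had reads of 4234 genes, against 1612 to 2495 genes in the other 4 cells of its group. Without IL-13 replicate 1 the log2 ratio of Gadd45g at 30 min to pre-stimulation was 6.38 in place of 2.20, against the 3-read floor, and without IL-5 replicate 3 it was 6.92 in place of 3.40.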

How the results depend on the processing

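No paired analysis was possible because the replicate numbers follow accession order only, each library is 1 cell and no test was made. The second title date holds no pre-stimulation cells, so it gave no value for comparisons with them. Other scalings moved the median log2 ratio of all genes by -0.11 to 0.38 (TMM), -0.18 to 0.27 (DESeq2) and -0.17 to 0.15 (mean of cells). The cause of the changes below was not tested.

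For IL-13, members past 4-fold higher in silent against pre-stimulation cells were 1, 2 on the first date and 3 with no CPM minimum, which also gave 1 lower. Lower at 60 against 30 min were 0, but 1 on either date (Gadd45a on the first, Rrad on the second), at 2-fold and at most on leaving out a cell. Gadd45a was also counted as lower on the first date at 90 min and in activated cells against 30 min. At 90 against 30 min the second date gave 1 higher and the first 2 lower, and leaving out a cell 0 to 1 lower. Lower in activated against 30 min cells were 2 by the mean of cells, 3 on the first date and at 2-fold, and 1 to 2 without a cell. Higher in activated against silent cells were 0 by the mean of cells, a pseudocount or the first date, 2 by TMM, DESeq2, no minimum or 2-fold, and 0 to 3 without a cell.

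For IL-5, the first date and no minimum gave 1 higher (Gadd45a) at 60 against 30 min, and the second date 0 lower. At 90 against 30 min the second date and 2-fold gave 1 higher. Lower in activated against 30 min cells were 2 on the first date, with no minimum and at 2-fold. Lower in activated against silent cells was 1 on either date, with no minimum and at 2-fold. Leaving out a cell gave 0 to 1 in these, except in activated against 30 min cells, where it stayed at 1.

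Over the listed genes, a minimum of 200 CPM in place of 50 gave 7 higher and 0 lower at 30 min against pre-stimulation in each index, and 0 in activated against silent cells. A minimum of 10 CPM gave 10 lower (IL-13) and 22 higher and 4 lower (IL-5) at 30 min, and 8 lower (IL-13), 2 higher and 7 lower (IL-5) in activated against silent cells, where the mean of cells gave 2 and 1 for IL-5.

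Ratios that changed sign included those of Gadd45g for IL-13 at 60 against 30 min (-0.021 by the mean of cells, -0.29 on the first date, -0.57 to 1.07 without a cell) and at 90 min (-0.14 on the first date), and of Gadd45b at 90 min (-0.11 on the first date, -0.027 to 0.25 without a cell). In activated against silent cells Gadd45a gave -4.10 to 5.01 and Rrad -2.89 to 4.19 without a cell. For IL-5, Gadd45g gave -0.50 on the second date and -0.066 to 1.51 without a cell at 60 min, -2.16 on the first date and -1.53 to 0.99 without a cell in activated against 30 min cells, and -2.07 and -1.29 to 0.92 likewise in activated against silent cells. Gadd45b gave 0.16 on the first date at 90 min, and 0.0083 by TMM, 0.23 on the first date and -0.26 to 0.083 without a cell in activated against silent cells, where Rrad gave 0.75 on the first date and -3.95 to 0.29 without a cell. Rrad for IL-5 at 90 against 30 min gave 1.12 on the second date. Gadd45a, under the CPM minimum over both dates together, gave 4.84 (60 min) and 4.65 (90 min) against 30 min on the second date and -5.51 in activated against 30 min cells on the first date for IL-13, and 1.44 at 90 against 30 min on the second date for IL-5.

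The rho of Gadd45b with Il13 became 0.56 (Pearson), 0.51 and 0.37 (dates), 0.061 (transition) and -0.064 (30 min and activated). Rrad with Il13 gave 0.30, 0.38, 0.082, 0.11 and 0.15 in that order. Gadd45b with Il5 gave 0.33, 0.27 with shallow cells, 0.36 and -0.032 (dates), -0.073 and 0.099, and Rrad with Il5 0.036 (Pearson) and 0.028 (shallow cells).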
